A study of Mus musculus with 3 samples.

Results

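The nuclear-encoded genes of the respiratory chain were described across the cell types of mouse blood in 3 single-cell RNA libraries. Members were taken by gene symbol: the Ndufa, Ndufb, Ndufc, Ndufs and Ndufv genes of complex I without the Ndufaf assembly factors, Sdha to Sdhd of complex II, the Uqcr genes of complex III, the Cox4 to Cox8 genes of complex IV without Cox6a2, and the Atp5 genes of ATP synthase (complex V). The rule found 85 of the 32285 genes in the feature list. Of these, 37 were assigned to complex I, 4 to complex II, 8 to complex III, 19 to complex IV, where Ndufa4 and its paralogue Ndufa4l2 were placed, and 17 to complex V. The rule itself uses no measured value, but it was set with earlier results of these data known.

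The respiratory chain sits in the inner mitochondrial membrane. Complexes I and II pass electrons from NADH and succinate to ubiquinone, complex III passes them on to cytochrome c, and complex IV hands them to oxygen. Complexes I, III and IV pump protons, and complex V uses the proton gradient to make ATP. A small set of core subunits is encoded in mitochondrial DNA, whereas all other subunits are encoded in the nucleus and imported, so both genomes supply parts of the same enzymes. Naive lymphocytes are known for low metabolic activity that increases on activation, and neutrophils for few mitochondria and a reliance on glycolysis.

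The young group was 8 weeks old when PBMCs were taken, the aged group 16 months, and the aged-GA group, also 16 months old, had received glycyrrhizic acid (GA), a saponin of licorice root, for 1 month. According to the methods of the study, the mice were female C57BL/6, GA was injected into the tail vein every other day, and controls received PBS. Each group was 1 library of the 10x Genomics 3′ assay, and although the study describes several mice per group, how their blood was combined into 1 library is not given in the sources used here. Because each group was 1 library, a difference between groups and a difference between libraries cannot be told apart, no test could be run, and every interval below is a 95% interval that covers counting error only.

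The libraries held 58894294, 82260961 and 98155671 UMIs (unique molecular identifiers, each marking 1 captured RNA molecule) in young, aged and aged-GA mice, and 8851, 10238 and 12648 cells were kept. Between 50 and 62 barcodes were shared by a pair of libraries. Cells were gated by the share of marker genes they held, which gave 2300, 4321 and 5600 B cells, 1036, 586 and 804 CD4 T cells, 2034, 922 and 1781 CD8 T cells and 319, 249 and 267 NK cells in young, aged and aged-GA mice. Monocytes numbered 55, 1205 and 313 and neutrophils 12, 829 and 540, so that comparisons of myeloid cells with young mice rest on few cells. Haemoglobin transcripts, which lymphocytes should lack, took 1.09%, 8.10% and 5.18% of the UMIs of B cells and 0.40%, 3.99% and 2.49% of those of CD8 T cells. The 10 neutrophil markers summed to 8.93, 714 and 276 CPM, UMIs scaled to 1 common total in each library and class, in B cells of the 3 libraries. The part of free RNA in the values below was not tested, and the main shares are also given with haemoglobin out of the denominator.

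Members summed to between 0.833% and 2.57% of all UMIs in leukocytes with at least 50 cells. Classical monocytes, the inflammatory monocytes of blood, held the highest share, with 2.57% in the aged library and 2.11% with GA. NK cells followed with 2.13%, 2.20% and 1.98% in young, aged and aged-GA mice. CD4 T cells held 1.57%, 1.89% and 1.65% and CD8 T cells 1.57%, 1.88% and 1.65%. Thus both T cell classes held nearly the same share of all UMIs in each library, and in both the aged library was the highest. B cells held 1.44%, 1.48% and 1.36%, below T cells in every library. Nonclassical monocytes, which patrol vessel walls, held 1.64%, 1.86% and 1.56%, below classical monocytes in both libraries where both were measured. Basophils held 1.10% in 112 cells of aged mice. In these cells the 10 neutrophil markers summed to 5439 CPM, beside 4955 CPM for the 6 basophil markers, and haemoglobin took 12.3% of UMIs. In B, plasma, T and NK cells and monocytes of that library the neutrophil markers gave 192 to 874 CPM. In basophils of aged-GA mice they gave 4879 CPM, with UMIs in 5 of the 10 markers. The sum was not divided by marker, so it does not measure neutrophil RNA in these cells. What part neutrophil RNA and haemoglobin had in the basophil values was not tested. Neutrophils were lowest among leukocytes, with 0.847% in the aged library and 0.862% with GA, and 0.833% and 0.850% in the mature neutrophils among them. The share in classical monocytes of aged mice was 3.03 times (2.99 to 3.07) that in neutrophils of the same library.

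**Figure D1:**
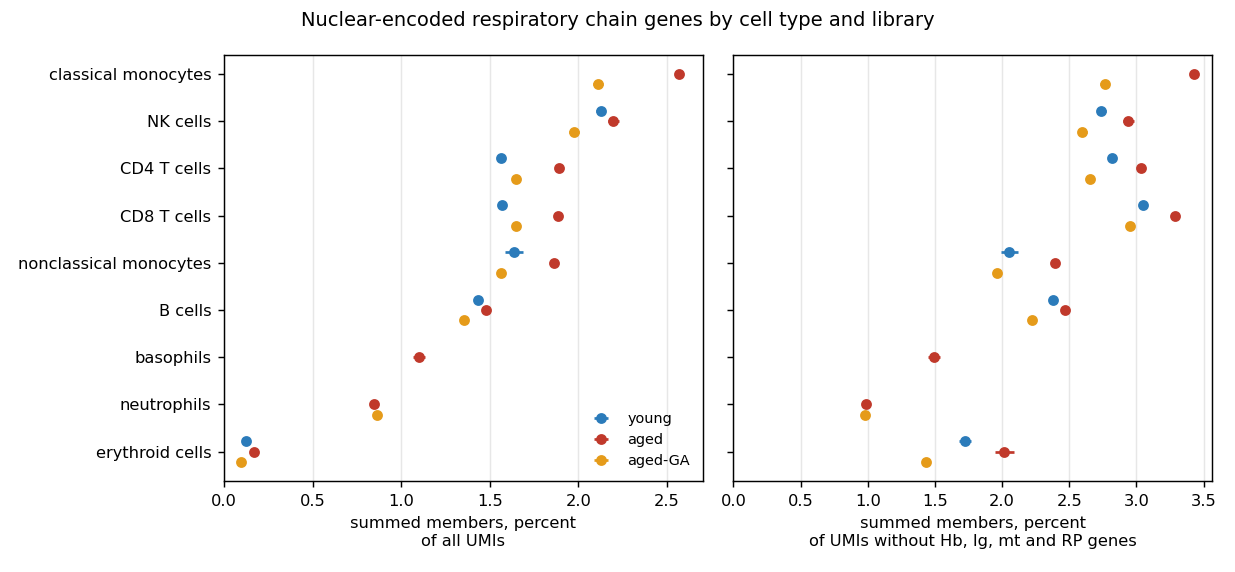
Summed members as a percentage of all UMIs (left) and of UMIs without haemoglobin (Hb), immunoglobulin (Ig), mitochondrially encoded (mt) and cytosolic ribosomal protein (RP) genes (right), for each cell type (rows) and library (colours). Points are single libraries with at least 50 cells, bars are 95% intervals of counting error, and on the left the aged library lies to the right of the aged-GA library in every type plotted for both, except neutrophils.

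The order of cell types depended on the denominator. Cytosolic ribosomal protein genes took 43.0%, 35.5% and 37.4% of the UMIs of CD8 T cells but 3.86% and 4.68% of those of neutrophils in aged and aged-GA mice. Against UMIs without haemoglobin, immunoglobulin, mitochondrially encoded and ribosomal protein genes, CD8 T cells lay above NK cells, with 3.05%, 3.28% and 2.96% against 2.74%, 2.94% and 2.60%. CD4 T cells held 2.82%, 3.03% and 2.66% on this scale, below CD8 T cells in each library. Of the types with at least 50 cells, classical monocytes were highest in aged mice, at 3.42%, but in aged-GA mice they held 2.76%, below the CD8 T cells of that library. Neutrophils were lowest, at 0.988% and 0.979% in these libraries, and the ratio of classical monocytes to neutrophils in aged mice was 3.47. Small classes lay higher still. Plasma cells, which secrete antibody, held 4.71% on this scale in 34 cells of aged mice and 4.01% in 28 cells of aged-GA mice, and cycling T cells held 3.66%, 4.02% and 3.77% in 18, 37 and 37 cells. Erythroid cells held only 0.123%, 0.170% and 0.0946% of all UMIs, most of which were haemoglobin, and 1.72%, 2.01% and 1.43% on the reduced scale.

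The proportions among the complexes varied little. Over 20 pairs of 8 leukocyte types and libraries with at least 50 cells, complex I genes gave 28.2% to 31.3% of member UMIs, complex II 1.30% to 1.97%, complex III 8.69% to 10.6%, complex IV 26.4% to 30.1% and complex V 28.8% to 32.7%. Thus cell types differed in the total far more than in the mix of complexes. Erythroid cells departed from these proportions, with 19.0% to 24.4% from complex I and 35.0% to 37.7% from complex V.

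Single members had a smaller median range over cell types than all genes that passed the same limit. For the 77 members that reached 50 CPM in a type, the median range over 9 types was 2.18 on log2 CPM of the reduced denominator. For all 5827 genes at that level it was 2.97. A gene entered through its highest type alone, so genes found in few types entered with a wide range. These medians therefore do not show that members are more even than other genes found in every type. Levels were means over the libraries with at least 50 cells of a type, which were 3 for lymphocytes and nonclassical monocytes, aged and aged-GA for classical monocytes and neutrophils, and aged alone for basophils. Classical monocytes were the highest type for 39 of the 85 members, CD8 T cells for 23 and NK cells for 14. In the aged library alone these counts were 39, 25 and 10, but in the aged-GA library alone 24, 31 and 18, so which of the types led most often differed between libraries. By the means, mature neutrophils were the lowest type for 38 members, immature neutrophils for 36 and basophils for 6. The other 5 members, Cox4i2, Cox7b2, Cox8b, Cox8c and Ndufa4l2, had 0 to 4 UMIs in all and carry no order. Counts of the highest and lowest type were not made for all genes, so they do not set members apart from other genes. In neutrophils of aged mice the 10 neutrophil markers took 217603 CPM of all UMIs, and they stayed in the reduced denominator. What part this has in the low levels there was not tested.

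**Figure D2:**
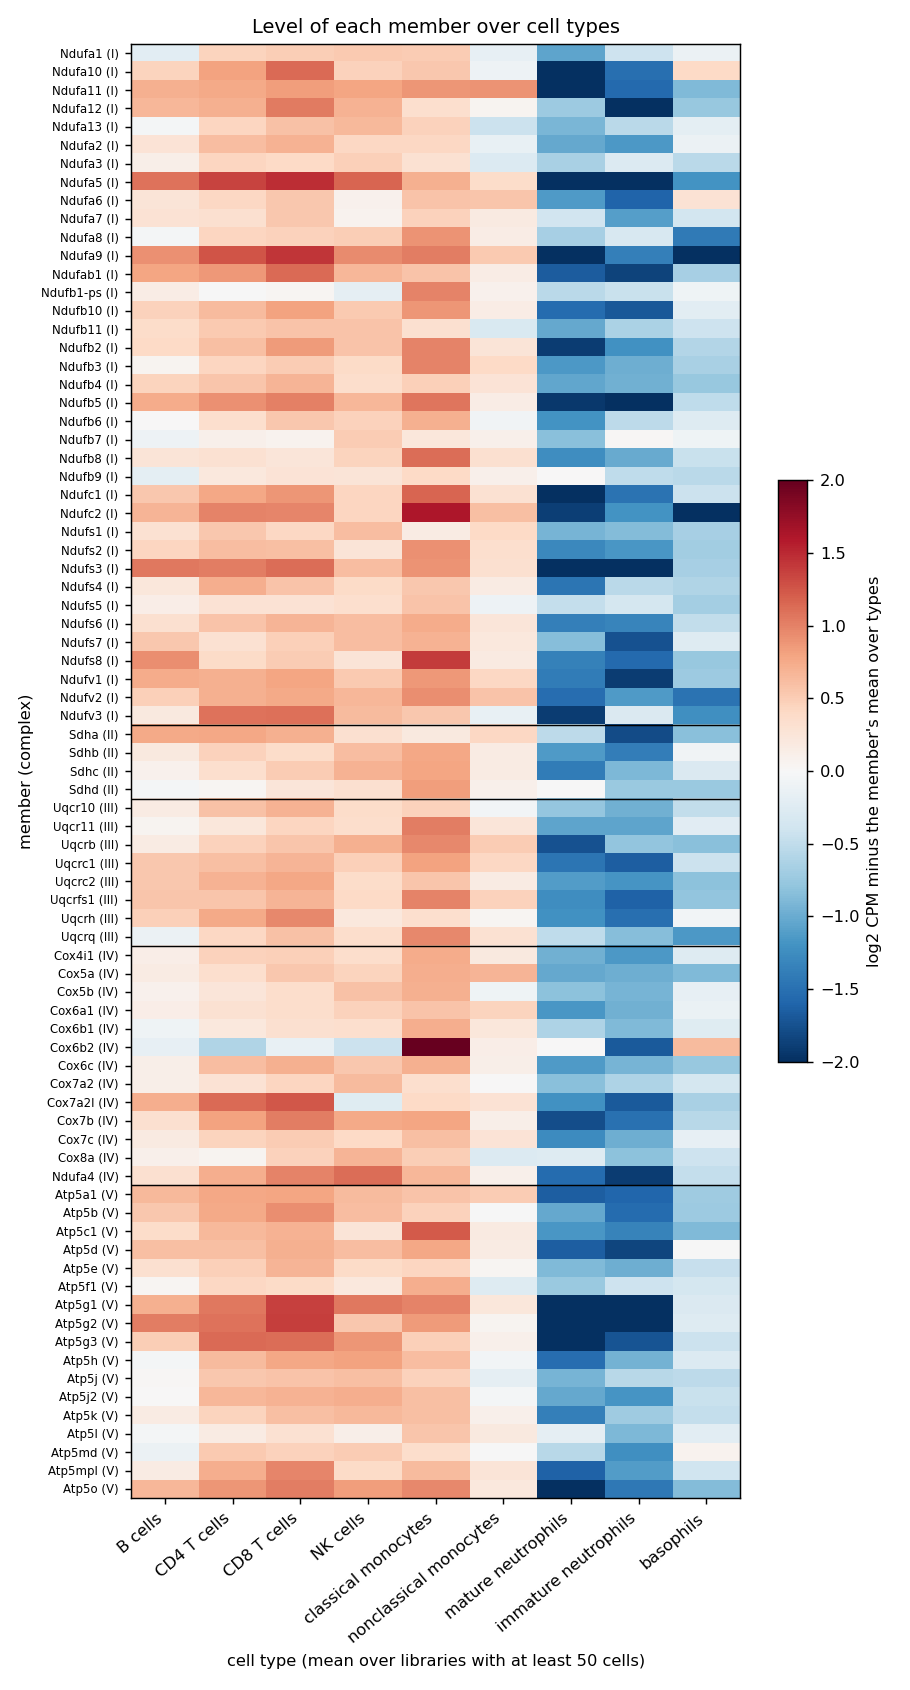
Log2 CPM of each detected member (rows, grouped by complex) in 9 cell types (columns), relative to the mean of that member over the types, with CPM on the denominator without haemoglobin, immunoglobulin, mitochondrially encoded and ribosomal protein genes. Both neutrophil columns are blue for nearly every member, and among the strongest colours are those of Atp5g1 and Ndufa5, low in neutrophils, and of Cox6b2, high in classical monocytes.

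Within complex I, Ndufb1-ps was the most abundant member in B cells, with 266, 324 and 243 CPM of all UMIs in young, aged and aged-GA mice. It carries a pseudogene symbol and is annotated as a non-coding RNA in GENCODE M21, so it has no coding sequence in the comparison by length. In the RefSeq annotation used for promoters below, the same symbol was matched to Ndufb1. Which transcript its UMIs came from was not tested. The widest range in the complex belonged to Ndufa9, an accessory subunit next to the ubiquinone site. Its level on the reduced denominator was 86.5 CPM in CD8 T cells and 3.93 CPM in basophils, a range of 4.15 on the log2 scale. The basophil level rests on 1 UMI of the aged library, and the 25 basophils of aged-GA mice held 5 UMIs. Without basophils the range of Ndufa9 was 3.45, and Ndufa5 had the widest range in the complex, 3.94, with 180.4 CPM in CD8 T cells and 10.8 CPM in immature neutrophils. At the other end, Ndufb9 varied by 0.95 only, between 388 CPM in classical monocytes and 200 CPM in basophils. The 7 core subunits, which bind NADH and carry the electrons to ubiquinone, lay between 19.6 CPM for Ndufs1 and 105 CPM for Ndufs8 in B cells of young mice. Ndufs1, which holds several iron-sulfur clusters, was the lowest member of complex I in B cells of each library, with 19.6, 27.3 and 24.5 CPM. Ndufv1, the NADH-binding subunit, gave 44.7, 38.1 and 38.8 CPM.

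Complex II has no subunit encoded in mitochondria and is also an enzyme of the citric acid cycle. Sdha, its flavoprotein, was found at 70.2, 78.2 and 94.4 CPM in B cells, and Sdhb, its iron-sulfur protein, at 89.5, 90.8 and 86.7 CPM. The membrane anchors were scarcer. Sdhc gave 24.4, 24.3 and 26.0 CPM and Sdhd 42.6, 40.9 and 45.1 CPM in the same cells. Sdhb was higher in NK cells (175, 133 and 141 CPM) than in B cells of each library.

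In complex III, Uqcrh, the hinge protein that contacts cytochrome c1, led in B cells with 607, 551 and 543 CPM. Uqcrb, a ubiquinone-binding subunit, had the widest range over types in this complex. It gave 127, 152 and 122 CPM in B cells, 271, 271 and 201 CPM in NK cells, and 339 and 245 CPM in classical monocytes of aged and aged-GA mice.

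In complex IV, Cox8a, a small subunit, led in B cells with 580, 688 and 592 CPM and reached 1127, 1325 and 1033 CPM in NK cells. Ndufa4, first described with complex I and now counted to complex IV, gave 328, 334 and 297 CPM in B cells and 738, 731 and 632 CPM in NK cells. In plasma cells it was the most abundant member by far, with 1934 CPM (1127 UMIs in 34 cells) in the aged library, 1845 CPM with GA, and 128 UMIs in 3 cells of young mice. The next member in plasma cells of aged mice, Atp5j2, had 531 UMIs. Plasma cell levels of Ndufa4 thus lay above those of B cells in each library, by a margin wider than the range over libraries within either class.

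In complex V, Atp5e, a subunit of the central stalk, led in B cells with 577, 684 and 543 CPM. The widest range in this complex was that of Atp5g1, with 409 CPM in CD8 T cells and 18.2 CPM in immature neutrophils on the reduced denominator. Atp5b, the catalytic subunit, gave 294, 222 and 277 CPM in B cells and 417, 269 and 365 CPM in NK cells.

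Some subunits are encoded by several genes, of which the tissue-restricted ones were rare in blood. Cox7b2 had 0 UMIs over the 3 libraries, Ndufa4l2 had 1, Cox8b and Cox8c had 2 each, Cox4i2 had 4 and Cox7a1 had 69. Cox6b2, best known from testis, had 457. For Cox7b2 the count of 0 allows up to 3 UMIs, as a one-sided limit. In leukocytes Cox6b2 made up a small part of Cox6b transcripts, for example 0.485%, 0.417% and 0.347% in B cells and 1.63% in classical monocytes of aged mice. In erythroid cells it made up 46.9% (36.6% to 57.3%), 24.0% (14.9% to 35.2%) and 40.6% (32.2% to 49.5%) in young, aged and aged-GA mice. These shares rest on 45 of 96, 18 of 75 and 54 of 133 UMIs, and the interval of the young library lies above that of the aged one. In the erythroid cells of young, aged and aged-GA mice the monocyte markers summed to 34.6, 470 and 74.4 CPM. The neutrophil markers summed to 2.55, 351 and 759 CPM. What part leukocyte RNA has in these shares was not tested.

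The c subunits of the ATP synthase ring are made by Atp5g1, Atp5g2 and Atp5g3, whose products differ in the import sequence and share the mature protein. Atp5g2 supplied the largest part of their UMIs in B and NK cells. In B cells its share was 61.7%, 61.4% and 62.4% in young, aged and aged-GA mice, and in NK cells 46.6%, 47.6% and 48.0%. Atp5g1 supplied 19.6%, 19.8% and 19.5% in B cells and 27.0%, 27.5% and 25.2% in NK cells. Thus the share in NK cells stood apart from that in B cells in each library, whereas the Atp5g1 intervals of the 3 libraries overlapped within B cells and within NK cells. Plasma cells differed from B cells, and in them Atp5g1 supplied 43.6% of the UMIs in the aged library (317 of 727) and 34.5% with GA (185 of 537).

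The Cox7a group differed between libraries within a cell type. Cox7a2 encodes the usual subunit of complex IV, and Cox7a2l encodes a related protein described as joining complexes III and IV into a supercomplex. Transcript counts do not show the form or function of that protein in the mice used here. Cox7a2l made up 59.7% (58.5% to 61.0%), 45.2% (44.2% to 46.3%) and 53.5% (52.7% to 54.4%) of Cox7a UMIs in B cells of young, aged and aged-GA mice. The shares were 67.3%, 45.9% and 55.0% in CD4 T cells, 66.7%, 44.9% and 54.6% in CD8 T cells and 34.5%, 23.9% and 28.5% in NK cells. In each of these types the share was highest in the young library, lowest in the aged library and between them in the aged-GA library, and only in NK cells did the aged-GA interval (25.1% to 32.1%) overlap those of the others. Nonclassical monocytes had 49.3%, 44.7% and 50.3%, with overlapping intervals, and classical monocytes 36.9% in aged and 51.2% in aged-GA mice.

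**Figure D3:**
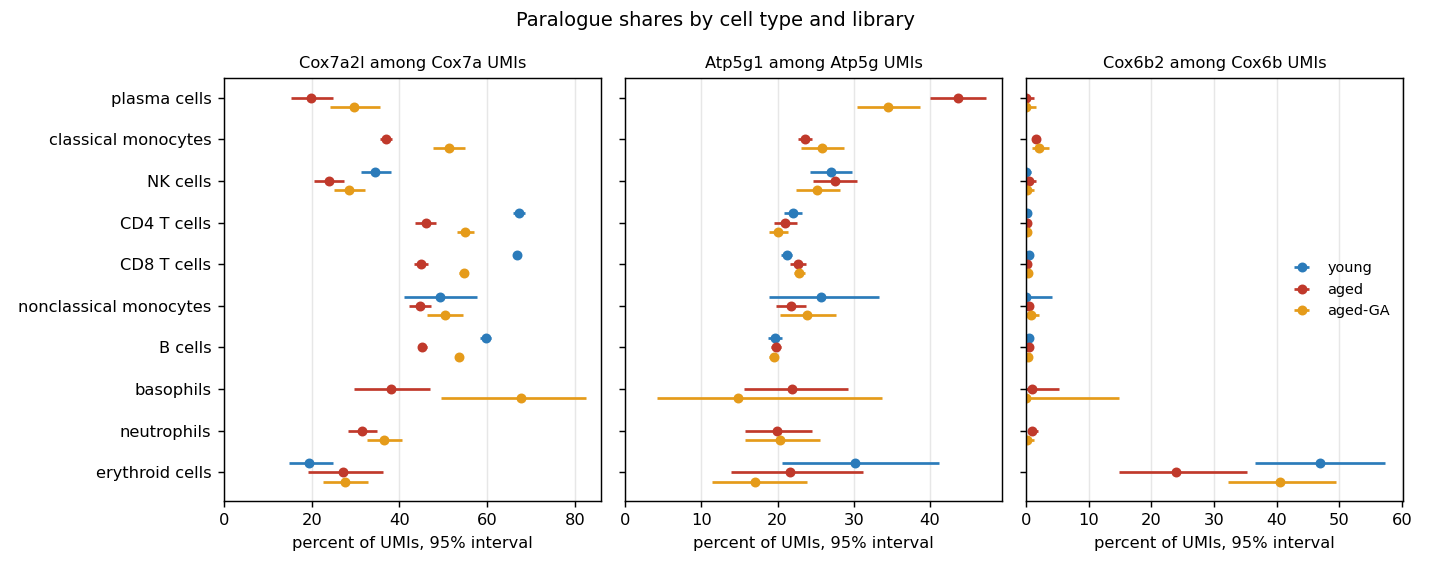
Share of Cox7a2l among Cox7a UMIs, of Atp5g1 among Atp5g UMIs and of Cox6b2 among Cox6b UMIs (x axes, percent) by cell type (rows) and library (colours), with 95% intervals of counting error, for classes of at least 20 cells. Cox7a2l shifts by library within B, T and NK cells, Atp5g1 stands apart in plasma cells, and Cox6b2 is frequent only in erythroid cells.

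The comparison of aged with young mice asked how the members' transcripts differ with age within a cell type. As a share of UMIs, members were higher in aged mice in CD4 and CD8 T cells and nearly level in B and NK cells, but under TMM scaling, which centres the ratios of most genes at 0, the sums in B, CD4 T and CD8 T cells were lower in aged mice. The log2 ratio of the summed share was 0.27 (0.26 to 0.29) in CD4 T cells, 0.26 (0.25 to 0.27) in CD8 T cells, 0.05 (0.04 to 0.06) in B cells and 0.05 (0.02 to 0.08) in NK cells. Under TMM it was -0.08 in CD4 T cells, -0.07 in CD8 T cells and -0.11 in B cells. The median of all genes counted was itself 0.28 in CD4 T cells, 0.28 in CD8 T cells and 0.19 in B cells, beside median members of 0.36, 0.34 and 0.07. Relative to that shift, members were 0.07 higher in CD4 T cells, 0.06 higher in CD8 T cells and 0.12 lower in B cells at the median. The excess did not hold for T cells as a whole, where the same difference was -0.02. It was -0.08 in T cells in which neither CD4 nor CD8 transcripts were found (2163 young and 693 aged cells).

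Part of the T cell value moved with the naive and memory cells in each library. Naive cells alone gave 0.17 for both CD4 and CD8 T cells. Memory CD4 T cells gave -0.00475 (-0.05 to 0.04), with only 41 young cells, and memory CD8 T cells gave 0.17. The young library had 988 naive among 1036 CD4 T cells, whereas the aged library had 328 among 586. Memory CD4 T cells held the higher member share in each library, with 2.14%, 2.13% and 1.78% against 1.53%, 1.73% and 1.55% in naive CD4 T cells.

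Few members differed by 1.5-fold or more between aged and young mice. In B cells 1 of the 78 members with at least 100 UMIs did, where 19.9% of all genes did so. In CD4 T cells 11 of 78 did, against 28.7% of all genes, and in CD8 T cells 7 of 78, against 25.6%. In NK cells it was 2 of 75, against 14.3%. The share of members was below the background in each type, and the members that passed in T cells were mostly higher in aged mice. The 10 that were higher in CD4 T cells, against 24.8% of all genes, were Cox5b, Cox6b1, Ndufa1, Ndufb1-ps, Ndufb6, Ndufb7, Ndufb9, Ndufc1, Ndufs7 and Uqcr11. The 6 that were higher in CD8 T cells, against 22.6%, were Cox6b1, Ndufb2, Ndufb9, Ndufs7, Uqcr11 and Uqcrq. In naive CD4 T cells alone 4 of 78 were higher and 1 lower, against 17.2% and 4.02% of all genes. In naive CD8 T cells 3 of 78 were higher and 1 lower, against 13.8% and 3.42%. In memory CD4 T cells 2 of 73 were higher and 4 lower, against 14.9% and 6.42%. In memory CD8 T cells 4 of 78 were higher and 2 lower, against 21.1% and 3.14%. On the reduced denominator 2 of 78 passed in CD4 T cells, against 22.2% of all genes in either direction, and 3 of 78 in CD8 T cells, against 19.6%. Under TMM scaling 0 were higher and 3 lower in CD4 T cells, and 0 higher and 4 lower in CD8 T cells, where 21.4% and 17.2% of all genes passed in either direction.

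Cox7a2l was the member that passed in B, CD4 T, CD8 T and NK cells, each time lower in aged mice. The gene lies on the minus strand of chromosome 17, from 83501918 to 83517330 (GRCm38). Its level was 393, 229 and 284 CPM in B cells of young, aged and aged-GA mice, 539, 286 and 346 CPM in CD4 T cells, and 545, 274 and 339 CPM in CD8 T cells. The log2 ratio of aged over young was -0.78 (-0.85 to -0.72) in B cells, -0.91 (-1.03 to -0.80) in CD4 T cells, -0.99 (-1.07 to -0.91) in CD8 T cells and -0.61 (-0.91 to -0.32) in NK cells. No other member was lower by 1.5-fold in B, CD4 T or CD8 T cells, where 3.11%, 3.89% and 2.98% of all genes were. In NK cells Atp5b was lower as well, beside 6.98% of all genes. In nonclassical monocytes Cox7a2l gave 310 CPM in young and 280 CPM in aged mice, a log2 ratio of -0.15 whose interval (-0.50 to 0.22) spans 0.

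Other members lower in aged mice included some from complexes I, III, IV and V. In complex II, Sdhb was lower in NK cells, as its levels above show. Cox4i1, a subunit that contacts the mitochondrially encoded core of complex IV, gave 482 and 366 CPM in B cells, 577 and 466 CPM in CD4 T cells and 532 and 430 CPM in CD8 T cells of young and aged mice. Atp5b was lower in B cells, by a log2 ratio of -0.40 (-0.48 to -0.33), in CD8 T cells by -0.26, and in NK cells by -0.63 (-0.86 to -0.41). Ndufa6, an accessory subunit of complex I, gave 286 and 226 CPM in CD4 T cells and 282 and 218 CPM in CD8 T cells. Uqcrc2, a core protein of complex III, gave 88.5 and 68.9 CPM in B cells, and Atp5o, which links the stalk to the head of complex V, 143 and 111 CPM.

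Members higher in aged mice included several accessory subunits. Uqcr11 of complex III gave 95.5 and 170 CPM in CD4 T cells and 99.3 and 174 CPM in CD8 T cells, log2 ratios of 0.83 (0.65 to 1.02) and 0.80 (0.68 to 0.93). Uqcrq of the same complex gave 159 and 261 CPM in CD8 T cells, and Cox6b1, which lies where complex IV dimers meet, gave 257 and 402 CPM. Ndufb9 and Ndufb1-ps were 155 and 252 CPM and 200 and 325 CPM in CD4 T cells. Ndufs7, a core subunit, gave 68.6 and 109 CPM in CD4 T cells and 67.0 and 118 CPM in CD8 T cells. In B cells the highest ratios were those of Ndufs1 (0.45), Ndufa5 (0.38), Uqcrq (0.38), Ndufb2 (0.37) and Uqcr11 (0.34), none past 1.5-fold. Of these, Ndufs1 is also a core subunit.

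By complex, the summed log2 ratio of aged over young in CD8 T cells was 0.29 for complex I, 0.14 for complex II, 0.19 for complex III, 0.25 for complex IV and 0.27 for complex V. In CD4 T cells complexes I to V gave 0.32, 0.26, 0.19, 0.26 and 0.27, and in B cells 0.09, 0.05, 0.02, 0.03 and 0.03. In B cells the interval of complex I (0.07 to 0.11) lay above those of complexes III, IV and V. Monocytes could be compared only with 55 young cells, 52 of them nonclassical, and 29 of 78 members passed 1.5-fold, all higher in aged mice, where 41.3% of all genes passed in either direction and 22.8% were higher. Within nonclassical monocytes the summed log2 ratio was 0.18 (0.14 to 0.23) and 6 of 75 passed, 5 of them higher, against 19.9% of all genes in either direction and 13.1% higher.

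The comparison of aged-GA with aged mice asked whether GA treatment moved these transcripts, and it shares the aged library with the comparison above, so both comparisons move with that library. It was the library with the most haemoglobin in B, CD4 T, CD8 T and NK cells and monocytes, as given above for B and CD8 T cells. Not every subset followed: in memory CD4 T cells haemoglobin took 3.93% of UMIs in aged and 4.21% in aged-GA mice. Members were lower in aged-GA mice in lymphocytes and monocytes. The summed log2 ratio was -0.13 (-0.14 to -0.12) in B cells, -0.20 (-0.22 to -0.18) in CD4 T cells, -0.19 (-0.20 to -0.18) in CD8 T cells, -0.15 (-0.18 to -0.13) in NK cells and -0.37 (-0.39 to -0.36) in monocytes. Classical monocytes were 709 of 1205 monocytes in aged and 110 of 313 in aged-GA mice, and in classical and nonclassical monocytes taken apart the ratio was -0.28 and -0.25. Neutrophils gave 0.02 (-0.00458 to 0.05), an interval that spans 0, and -0.20 under TMM scaling. The direction in B cells, T cells and monocytes was the same under each alternative run. The median of all genes was between -0.05 and 0.10 in B cells, all T cells, CD4 T, CD8 T and NK cells and monocytes. In neutrophils it was 0.17, above the median member there, which was 0.01.

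The differences were small for single members and spread over many of them. In B cells 58 of 78 members were below 0, in CD4 T cells 57 of 78, in CD8 T cells 61 of 78 and in monocytes 71 of 79. The median member was at -0.15 in B cells, -0.21 in both T cell classes and -0.40 in monocytes, beside -0.01, -0.02 (CD4), -0.04 (CD8) and 0.10 for all genes. Above the median of all genes lay 21 of 78 members in each of B, CD4 T and CD8 T cells, and 2 of 79 in monocytes. None of the 78 passed 1.5-fold in B cells, where 1.98% of all genes did. In CD4 T cells 1 of 78 passed against 2.62%, in CD8 T cells 1 of 78 against 3.02%, and in NK cells 1 of 75 against 4.06%. The member was Atp5md in both T cell classes and Ndufab1, the mitochondrial acyl carrier protein, in NK cells (136 and 85.7 CPM in aged and aged-GA mice). In monocytes 13 of 79 passed, all lower, against 10.3% of all genes in either direction and 3.83% in the lower direction. Among nonclassical monocytes 7 of 78 passed, all lower, against 4.77% of all genes in either direction and 2.09% lower, and among classical monocytes 6 of 78 passed, all lower, against 8.18% and 4.04%.

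Atp5md, a small subunit associated with ATP synthase dimers and encoded on the minus strand of chromosome 19 from 47083464 to 47090647, had the lowest ratio in B, CD4 T and CD8 T cells and in monocytes. Its level was 144, 163 and 110 CPM in B cells of young, aged and aged-GA mice, 195, 267 and 178 CPM in CD4 T cells, and 169, 247 and 149 CPM in CD8 T cells. The log2 ratio of aged-GA over aged was -0.57 (-0.65 to -0.49), -0.59 (-0.74 to -0.44) and -0.73 (-0.83 to -0.63), and -0.75 (-0.92 to -0.60) in monocytes. Each aged-GA level lay below both other libraries. Ndufb1-ps came next in B, CD4 T and CD8 T cells, at -0.41, -0.57 and -0.50. Ndufa3, a small accessory subunit, was 161 and 125 CPM in B cells and 211 and 149 CPM in CD4 T cells of aged and aged-GA mice. Uqcrb was 203 and 145 CPM in CD4 T cells, and Cox5b, a zinc-binding subunit of complex IV, 583 and 350 CPM in monocytes. In monocytes Ndufa1, an accessory subunit of the membrane arm, was 299 and 178 CPM.

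A minority of members was higher in aged-GA mice. Cox7a2l gave log2 ratios of 0.31 (0.26 to 0.37) in B cells, 0.27 (0.15 to 0.40) in CD4 T cells, 0.31 (0.23 to 0.39) in CD8 T cells and 0.49 (0.33 to 0.65) in classical monocytes. Its aged-GA level stayed below the young level in B and T cells. Cox4i1 was 443 CPM in B cells and 503 CPM in CD8 T cells of aged-GA mice, again between the aged and young levels. Atp5b was higher by 0.32 in B cells, 0.28 in CD8 T cells and 0.44 (0.21 to 0.68) in NK cells. Ndufa10 gave 0.37 in B cells and Uqcrc2 0.35 in CD8 T cells.

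Complex II differed from the other complexes in B cells. Its summed log2 ratio was 0.11 (0.05 to 0.17), whereas complexes I, III, IV and V gave -0.15, -0.12, -0.12 and -0.12. Sdha contributed 78.2 and 94.4 CPM in aged and aged-GA mice. By the B cell levels given above, Sdhc and Sdhd were also higher in aged-GA mice, by less, whereas Sdhb was lower. In CD4 T cells complex II gave 0.08 (-0.05 to 0.21) and in CD8 T cells 0.03 (-0.07 to 0.12), and in monocytes it was lower, at -0.23 (-0.35 to -0.12), beside -0.44 for complex I. With 4 genes, complex II gave at most 1.97% of member UMIs, so these sums rest on few transcripts. Sdha, Sdhb, Sdhc and Sdhd have coding sequences of 1992, 846, 507 and 477 bases. All 4 fall among the longer members described below. In B cells the longer members had a median of -0.06 for aged-GA over aged and the shorter ones -0.22. What part length has in the values of complex II was not tested.

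Among the 3 libraries, the aged one was the highest for 50 of 78 members in B cells, 54 in CD4 T cells, 56 in CD8 T cells, 40 in NK cells and 54 in nonclassical monocytes. The same held for 44.4%, 46.0%, 51.1%, 30.8% and 26.5% of all genes counted in these types. The aged-GA library was the highest for 6 members in B cells and 10 in CD8 T cells, beside 32.6% and 32.8% of all genes.

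Members higher and lower in the aged library also differed in size. The longest annotated coding sequence (GENCODE M21) was known for 84 of the 85 members, and the 77 of them with at least 1000 UMIs in the 3 libraries had a median of 423 bases, against 1323 bases for the 8310 genes at that level. Members were therefore divided at 423 bases, a limit set after the ratios had been seen. In CD8 T cells the 38 shorter members had a median log2 ratio of aged over young of 0.41 and the 39 longer members 0.19. In CD4 T cells the medians were 0.42 and 0.21, and in B cells 0.17 and -0.00368. For aged-GA over aged the shorter members were the lower ones, with -0.27 for shorter and -0.07 for longer members in CD8 T cells, -0.28 and -0.04 in CD4 T cells, -0.22 and -0.06 in B cells and -0.47 and -0.24 in monocytes. Of the shorter members, 2 of 38 in B cells and 3 of 38 in CD8 T cells were above 0, and of the longer members 18 of 39 and 14 of 39. Among all genes counted, 199 of 599 shorter and 4131 of 8649 longer ones were above 0 in B cells. In CD8 T cells these counts were 142 of 540 and 3177 of 7514, so shorter genes in general were also mostly below 0.

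The rank correlation of coding length with the ratio, across members, was -0.47 in B cells, -0.44 in CD4 T cells and -0.47 in CD8 T cells for aged over young, and 0.69, 0.67 and 0.62 for aged-GA over aged. These are descriptions across genes that share the same libraries, and the comparisons share the aged library. Across all genes the same correlations were 0.39, 0.23 and 0.25 for aged over young, opposite in sign to those of the members, and -0.14, -0.05 and -0.07 for aged-GA over aged. Genes in general with coding sequences under 423 bases had medians of -0.08 in B cells, -0.12 in CD4 T cells and -0.14 in CD8 T cells for aged-GA over aged, nearer to 0 than the shorter members. In monocytes the correlations across members and across all genes had the same sign, at -0.25 and -0.18 for aged over young and 0.48 and 0.28 for aged-GA over aged. Genes in general with shorter and longer coding sequences had medians of -0.20 and 0.11 there for aged-GA over aged, a wider gap than that of the members. Of the young monocytes 52 of 55 were nonclassical, whereas 709 of 1205 aged ones were classical. Within nonclassical monocytes the correlations for aged over young were -0.14 across members and 0.02 across all genes, which differ in sign. Shorter and longer members had medians of 0.18 and 0.19 in that class, so the gap was absent. For aged-GA over aged its correlations were 0.36 and 0.23. Scaling by 1 factor per library moves members of both sizes alike and leaves the gap between them nearly unchanged. A difference between libraries that itself goes with length was not tested. With 1 library per group it cannot be told apart from a difference between groups. Cox7a2l, with 402 bases, and Ndufa6, with 393, were shorter members that were lower in aged mice, and Ndufs7, with 672, was a longer member that was higher. Ndufs1, with 2181 bases, was a longer member with the highest ratio of aged over young in B cells. With the longest annotated transcript in place of the coding sequence, the correlations across members were nearer to 0, at -0.30, -0.33 and -0.29 for aged over young and 0.44, 0.44 and 0.41 for aged-GA over aged. What else goes with length in these genes was not tested.

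**Figure D4:**
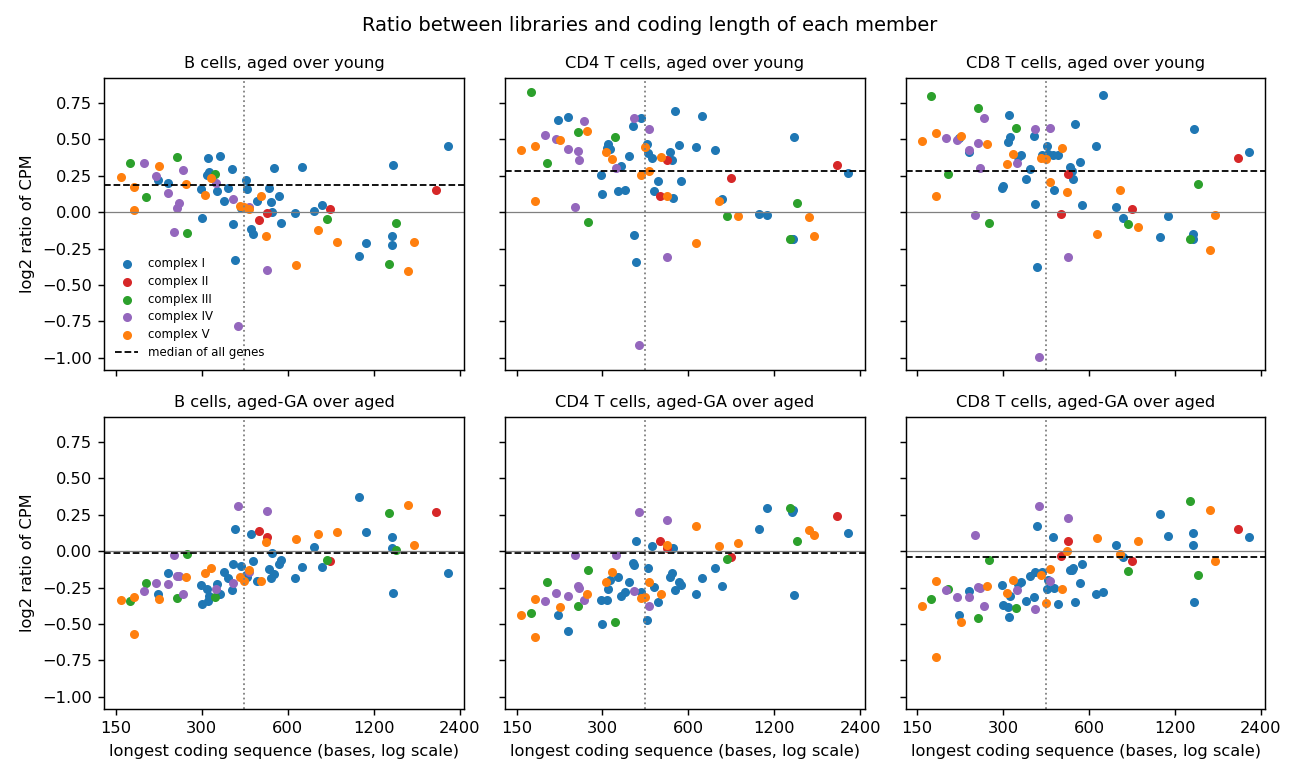
Log2 ratio of CPM (y axis) of each counted member against its longest coding sequence (x axis, bases, log scale) in B, CD4 T and CD8 T cells, for aged over young (top) and aged-GA over aged (bottom). Colours give the complex, the dashed line is the median of all genes and the dotted line marks 423 bases; members left of it lie mostly above those to the right in the top row and below them in the bottom row.

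As a share of UMIs, transcripts of the mitochondrial genome were lowest in the aged library in B, T and NK cells, where the nuclear members as a sum were highest, an order that turned for the members of aged against young mice under TMM scaling in B, CD4 T and CD8 T cells. The 13 mitochondrially encoded proteins took 5.53%, 3.40% and 4.75% of UMIs in B cells of young, aged and aged-GA mice, 4.96%, 2.85% and 3.94% in CD4 T cells, and 5.08%, 3.02% and 4.33% in CD8 T cells. All 13 were below 0 in aged over young in each of these types, and 8 of 13 were lower by 1.5-fold or more, beside the 3.11% (B), 3.89% (CD4) and 2.98% (CD8) of all genes given above. For aged-GA over aged, 3 were higher and 2 lower by that fold in B cells, where 0.678% and 1.3% of all genes were, and 4 higher and 2 lower in CD8 T cells, where 0.998% and 2.02% were. There were 0.309, 0.623 and 0.380 nuclear member UMIs for each mitochondrial UMI in CD8 T cells, 0.316, 0.664 and 0.418 in CD4 T cells and 0.260, 0.435 and 0.286 in B cells. In NK cells the values were 0.662, 1.06 and 0.656. Cells over 7.5% mitochondrial UMIs had been removed. The median mitochondrial share of kept cells was 5.05%, 2.83% and 4.22% in the 3 libraries, and its part in these ratios was not tested.

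**Figure D5:**
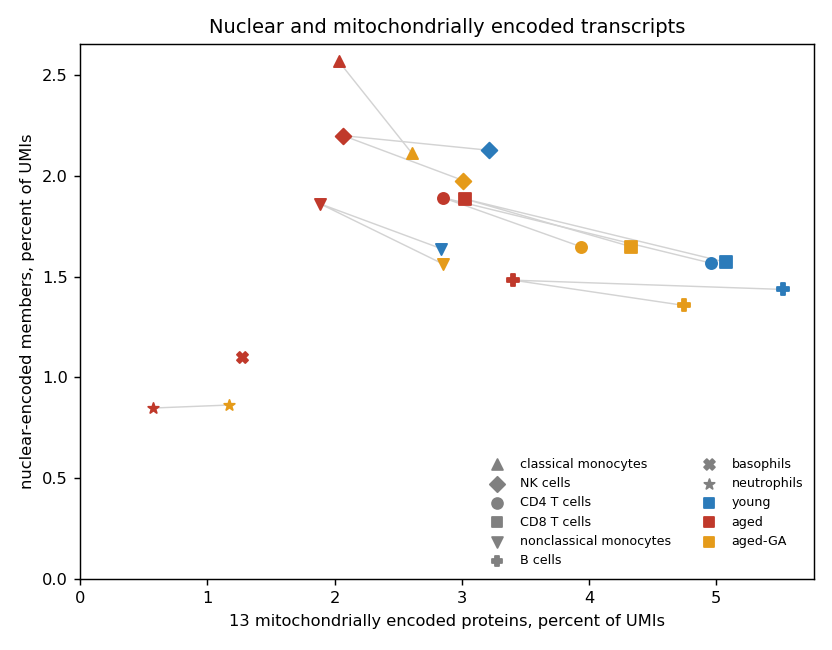
Summed nuclear-encoded members (y axis, percent of UMIs) against the 13 mitochondrially encoded proteins (x axis, percent of UMIs) for cell types with at least 50 cells (symbols) in each library (colours), with grey lines joining the libraries of a type. The aged library lies to the upper left of the other libraries in every lymphocyte class.

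Lists of other metabolic genes were set beside the members. Of 46 assembly factors, 44 were counted in B cells, where 0 passed 1.5-fold between aged and young mice, against 19.9% of all genes, and the median log2 ratio was 0.12, and in aged-GA over aged the median was 0.04 with 1 lower, against 1.3%. In CD8 T cells 40 were counted for aged over young, with 5 higher by 1.5-fold, against 22.6% of all genes, 0 lower and a median of 0.15. The 13 TCA cycle genes had medians of -0.17 in B cells, 0.13 in CD4 T cells and 0.11 in CD8 T cells for aged over young, and 0.08, -0.03 and 0.04 for aged-GA over aged. The 18 glycolysis genes, of which 12 to 14 were counted, had medians of -0.23, 0.15 and 0.16 and then 0.08, 0.22 and 0.13. Of 12 regulators of mitochondrial biogenesis, 10 were counted in B cells, with 2 higher by 1.5-fold in aged mice, against 16.8% of all genes, and a median of 0.31, beside 0.19 for all genes. Cytochrome c and its partner Cyc1 had a median of 0.51 in CD8 T cells for aged over young and of -0.32 for aged-GA over aged. Of the 84 cytosolic ribosomal proteins 81 were counted, with medians of -0.24, -0.39 and -0.26 in B, CD4 T and CD8 T cells for aged over young and 0.05, 0.01 and 0.08 for aged-GA over aged.

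The promoters of respiratory chain genes are known for sites of nuclear respiratory factor 1 (NRF1), ETS factors such as GABP, and YY1. RefSeq windows of 300 bases (GRCm38.p6, from 250 before the transcript start to 50 after it) were used for 70 of the 85 members and for 27025 genes in all, and motifs were searched on both strands. The NRF1 sequence GCATGCGC was found in 10 of 70 members (14.3%) and in 3.05% of all genes, and the palindrome of 10 bases that holds it in 5 of 70 (7.14%) and 1.07%. The ETS sequence ACCGGAAG was found in 7 of 70 (10.0%) and 2.60%, and the YY1 sequence AAGATGGCG in 7 of 70 and 1.64%. The ERR sequence TCAAGGTCA was found in 2 of 70 (2.86%) and 0.466%. In all, 24 of 70 members held at least 1 of these. The 5 with the palindrome were Atp5g2, Atp5k, Cox6a1, Ndufa11 and Uqcrc1. The shorter NRF1 sequence is contained in the longer one. The 27025 genes were not chosen by expression in blood or by base composition. Whether genes like the members in these traits hold the motifs as often was not tested. The matches describe the letters of the windows and do not show binding.

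The 10 matches include Ndufa6, lower in aged mice, and Uqcr11, higher in aged mice. For Ndufa6 and Atp5l the match lay before the transcript start and outside every annotated exon, and these 2 are shown with up to 20 bases on either side, in capitals where the motif matched. Ndufa6 is taken from the minus strand of chr15:82354347-82354394 and Atp5l from the minus strand of chr9:44920955-44920992 (GRCm38.p6). For Atp5l the 300-base window ended nearer to the match, so fewer bases are shown before it.
Ndufa6: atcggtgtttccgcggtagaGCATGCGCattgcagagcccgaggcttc
Atp5l: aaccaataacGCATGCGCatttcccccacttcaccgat
The match ended 75 bases before the annotated start in Ndufa6 and 232 bases before it in Atp5l. Atp5l, a subunit of the membrane part of ATP synthase, gave 442, 480 and 433 CPM in B cells and 478, 603 and 493 CPM in CD8 T cells, highest in the aged library as a share of UMIs. Ndufa6 was lowest in the aged library in the same cells, with 256, 204 and 226 CPM and 282, 218 and 245 CPM.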

How the data were processed

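The authors deposited raw UMI counts per gene and cell for 1 library in each group, made with Cell Ranger (5.0.0 in the matrix headers) on mm10 per the submitters' processing notes. Cells under 200 genes, over 90% of the highest gene number or over 7.5% mitochondrial UMIs were removed. A cell joined the class of which it held the highest share of marker genes, with a share of at least 0.4, a lead of at least 0.2 and at least 2 markers. These limits were set after the cells had been seen. Counts were summed per library and class and expressed as a percentage of UMIs or as CPM. Log2 ratios used a pseudocount of 1 CPM, which understates differences of low genes, and a gene was counted where both libraries together gave at least 100 UMIs, with 1.5-fold as the limit. With 1 library per group no test was possible. Exact 95% binomial or Poisson intervals cover counting error only.

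Named were the highest and the most variable member of each complex, the succinate dehydrogenase genes, paralogue groups, and the 5 members with the highest and the 5 with the lowest ratio per class and comparison, of which the text gives a selection. Members and lists were chosen with earlier results of these data known. Alternatives were TMM scaling, another denominator, pseudocount, UMI minimum and gate, per-cell means, no mitochondrial filter, naive or memory cells alone, and leaving out the 5% of cells with the highest Scrublet scores, since doublets were otherwise kept. Scripts were tested on simulated data. Python 3.11.15, NumPy 2.4.6, pandas 2.3.3, SciPy 1.17.1, scanpy 1.11.5 and matplotlib 3.10.9 were used, with GENCODE M21 for annotation.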

Additional observations from a re-analysis of the deposited data

How the results depend on the processing

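Of the values that summarise a comparison under an alternative, 46 stayed within their spread or within 1.5 times the count, 41 moved, and 4 with a reported interval clear of 0 turned direction. Of those that moved, 3 changed sign from a value whose interval spans 0, all in neutrophils for aged-GA over aged. Summed log2 ratios of aged over young turned under TMM scaling in B cells (-0.11), CD4 T cells (-0.0839) and CD8 T cells (-0.0699). Memory CD4 T cells alone gave -0.00475, which is counted as turned although its own interval (-0.05 to 0.04) spans 0. The summed ratios moved to 0.10 (B), 0.30 (CD4) and 0.28 (CD8) under a stricter gate. They moved to 0.0889 (B) and 0.24 (CD4) as means of per-cell shares, and to 0.10 (CD4) and 0.11 (CD8) on the reduced denominator. Naive cells gave 0.17 in both T cell classes and memory CD8 T cells 0.17. The cause of these moves was not tested.

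For aged-GA over aged, TMM scaling gave -0.10 (B), -0.17 (CD4), -0.12 (CD8), -0.52 (monocytes) and -0.20 (neutrophils). The reduced denominator gave -0.15 (B), -0.15 (CD8), -0.41 (monocytes) and -0.0136 (neutrophils). Per-cell means gave -0.14 (B), -0.18 (CD4) and -0.0423 (neutrophils), and the stricter gate -0.14 (B) and -0.40 (monocytes). Leaving out the highest Scrublet scores gave -0.12 in B cells. Naive cells gave -0.16 in both T cell classes, memory cells -0.26 (CD4) and -0.24 (CD8), and classical and nonclassical monocytes -0.28 and -0.25. Memory cells, monocyte classes, the order of cell types within 1 library and the range without basophils were added as alternatives after the data had been seen.

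Members past 1.5-fold for aged over young numbered 3 (CD4) and 4 (CD8) under TMM scaling and 2 and 3 on the reduced denominator. For aged-GA over aged there was 1 in B cells on the reduced denominator, and 0 in CD4 T cells with a pseudocount of 10 CPM, under TMM scaling, on the reduced denominator and without the highest Scrublet scores. The ratio of classical monocytes to neutrophils was 3.47 on the reduced denominator. No paired analysis was possible because each group is 1 library.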
